A study of Mus musculus with 4 samples.

Results

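A set of 8 genes of MHC class I antigen presentation and of the interferon-responsive surface of the endothelium were followed in the aorta. They were *B2m*, *H2-D1*, *H2-K1*, *Ly6a*, *Ly6c1*, *Ly6e*, *Bst2* and *Ifitm3*, chosen by symbol, and all 8 were listed among the 16408 nuclear genes of the deposited tables. Cells were wells with at least 1000 unique molecular identifiers (UMIs, 1 per captured transcript) from nuclear genes and at most 25% mitochondrial UMIs, which kept 441 of 1536 wells. The kept cells numbered 157 in KO mouse 1, 98 in KO mouse 2, 114 in WT mouse 1 and 72 in WT mouse 2, where KO and WT stand for the library labels *Epas1* EC-KO and *Epas1* EC-WT, with 2 mice each.

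The study examined the role of endothelial EPAS1, a hypoxia-inducible transcription factor, by SORT-seq of single aortic cells sorted as CD31+, CD45- and negative for the dead-cell dye TO-PRO-3, with 1 plate of 384 wells for each mouse. All 4 mice carried *Epas1* fl/fl on a C57BL/6 background. The EC-KO mice also carried Cdh5Cre/+, a tamoxifen-inducible recombinase under an endothelial promoter, whereas the EC-WT mice were littermates without Cre (Cdh5+/+). Both groups received tamoxifen at 6 weeks of age, were analysed 2 weeks later, and were matched for age and sex. The whole aorta was digested and the adventitia was removed on the way.

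Depth and identity of the cells were examined first. The kept cells of a mouse held between 566088 and 1088901 nuclear UMIs, with a median of 3779 to 7419 UMIs a cell. The 14 endothelial marker genes together measured 10190.1 to 13400 CPM, that is, UMIs for every 1000000 nuclear UMIs in kept cells. Of 10 immune marker genes, 5 had a row in the tables, and these summed to 4.62 to 12.9 CPM. Smooth muscle genes were unevenly distributed, since the list of 11 summed to 4753 and 6611 CPM in KO mice 1 and 2 but to 969 and 1274 CPM in WT mice 1 and 2. The 8 fibroblast genes summed to 3142, 1580.3, 753 and 1297 CPM in the same order. *Epas1* itself measured 2929.6, 3148, 3324 and 2351 CPM, and the groups overlapped (log2 fold change of EC-KO against EC-WT 0.13 ± 0.22 SE, adjusted *P* = 0.951, edgeR). SORT-seq reads the 3′ end of a transcript, and the part of the gene that was deleted is not given in the sources used here, so whether this count should fall in EC-KO cells is unknown. The study's methods describe more cells from EC-WT than from EC-KO mice, whereas the kept wells gave more from the libraries labelled EC-KO. Group names below are therefore those of the library labels, and every direction rests on them.

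MHC class I molecules display peptides from inside a cell to CD8 T cells. Each is a heavy chain, encoded here by *H2-D1* or *H2-K1*, bound to the light chain beta-2-microglobulin, encoded by *B2m*, and is loaded in the endoplasmic reticulum by transporters and chaperones such as tapasin. Interferons raise this machinery, together with antiviral membrane proteins: *Bst2* encodes tetherin, which holds budding virus at the cell surface, and *Ifitm3* encodes a protein of endosomal membranes that hinders viral entry. *Ly6a* (the stem cell antigen Sca-1), *Ly6c1* and *Ly6e* encode small proteins anchored to the membrane by a lipid, and the first of these, best known from stem cells, is also carried by endothelium. Endothelial cells carry MHC class I on their surface at rest.

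Of the 8 genes, 6 had an entry in the RefSeq table of promoters on GRCm38.p6, and the 250 bases upstream of each listed start were searched on both strands for AANNGAAA (the core bound by interferon regulatory factors), the interferon-stimulated response element in the form of a pair of GAAA separated by any 2 bases (which contains the core), and the hypoxia response element cores ACGTG and GCGTG. Sequences are shown for the 4 of these 6 genes with a match to an interferon motif. Capitals mark the matches to the interferon regulatory factor core and response element, and every sequence reads 5′ to 3′ on the gene's own strand. The upstream regions of *B2m* (chr2:122147437-122147686, plus strand) and *Bst2* (chr8:71537473-71537722, minus strand) hold the full response element:
B2m: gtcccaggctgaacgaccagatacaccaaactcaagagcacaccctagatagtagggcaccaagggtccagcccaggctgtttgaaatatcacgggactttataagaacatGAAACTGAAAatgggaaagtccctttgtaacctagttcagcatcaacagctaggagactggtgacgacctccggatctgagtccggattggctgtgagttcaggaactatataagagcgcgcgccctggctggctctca
Bst2: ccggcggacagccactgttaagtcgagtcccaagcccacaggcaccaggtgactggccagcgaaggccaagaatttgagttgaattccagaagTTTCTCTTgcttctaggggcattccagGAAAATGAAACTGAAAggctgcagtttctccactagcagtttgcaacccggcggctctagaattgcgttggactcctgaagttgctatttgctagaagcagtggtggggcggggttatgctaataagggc
The response element begins 139 bases before the *B2m* start and occurs as a pair of overlapping copies 130 and 124 bases before the *Bst2* start. Such a match stands in 2.98% of 32851 mouse promoters of this length. The heavy chain genes carry the shorter core on the opposite strand, inside a stretch of 30 bases that is the same in both genes at 29 positions (*H2-D1*, chr17:35262933-35262962, plus strand; *H2-K1*, chr17:34000419-34000448, minus strand):
H2-D1: catctcctcagTTTCACTTctgcacctaac
H2-K1: catctccacagTTTCACTTctgcacctaac
The core AANNGAAA occurs in 21.3% of promoters. The upstream regions of *Ly6c1* and *Ifitm3* had no match to either interferon motif. ACGTG matched none of the 6 genes, against 16.6% of promoters, and GCGTG matched *H2-D1* and *Ifitm3*, against 28.2%. *Ly6a* and *Ly6e* had no entry. In the GENCODE annotation of GRCm38 the protein-coding genes *Ly6e* (chr15:74955051-74959905), *Ly6a* (chr15:74994877-74998031) and *Ly6c1* (chr15:75044018-75048830) lie in 1 stretch of chromosome 15. *H2-K1* (chr17:33996017-34000347) and *H2-D1* (chr17:35262730-35267499) share chromosome 17, while *B2m* lies at chr2:122147686-122153083, *Bst2* at chr8:71534255-71537456 and *Ifitm3* at chr7:141009586-141010770. Reads of near-identical copies can be exchanged in counting: 18.2% of windows of 75 bases at the 3′ ends of *Ly6c1* transcripts also occur in *Ly6c2* or *Ly6a*, and 1.81% of those of *H2-K1* occur in other class I genes, so the *Ly6c1* value is uncertain in this respect. For the remaining genes the share was at most 0.939%.

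Transcripts of the antigen-presenting complex were among the more abundant of the 8 genes. *B2m* measured 3636 ± 599 CPM (SD, n = 4 mice), *H2-D1* 3082 ± 378, *Ly6e* 2888 ± 569, *H2-K1* 1781 ± 284, *Ly6a* 1299.7 ± 388, *Ifitm3* 836 ± 165, *Ly6c1* 192 ± 67.0 and *Bst2* 64.9 ± 15.9 CPM. Because 1 UMI marks 1 captured 3′ end, these levels are not divided by transcript length. *B2m* exceeded *H2-D1* in 4 of 4 mice and *H2-D1* exceeded *Ly6e* in 3 of 4, and in both pairs the means differed by less than an SD of the higher gene, so this part of the order is not resolved. Every other neighbour in the order was higher in 4 of 4 mice, by more than either SD. Together the 8 genes made up 1.15%, 1.24%, 1.57% and 1.55% of nuclear UMIs in KO mouse 1, KO mouse 2, WT mouse 1 and WT mouse 2. *H2-D1* exceeded *H2-K1* by a ratio of 1.72, 2.00, 1.58 and 1.67 in that order, and the 2 heavy chains together held 1.35, 1.48, 1.18 and 1.38 UMIs for each *B2m* UMI.

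The first comparison asked whether the 8 genes differ between mice labelled EC-KO and EC-WT. None of them passed the test, although each was lower on average in the EC-KO libraries. *B2m* measured 3049.9 and 3192 CPM in KO mice 1 and 2 against 4211 and 4089 in WT mice 1 and 2, so that both EC-KO values lay below both EC-WT values (log2 fold change -0.38 ± 0.19 SE, adjusted *P* = 0.760, edgeR). The heavy chain *H2-K1* had the same arrangement, with 1514 and 1576 against 1921 and 2111 CPM (log2 fold change -0.35 ± 0.18, adjusted *P* = 0.771). *H2-D1* measured 2612 and 3150.0 against 3036 and 3531 CPM, and here the groups overlapped (log2 fold change -0.15 ± 0.20, adjusted *P* = 0.924).

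The Ly6 genes *Ly6a* and *Ly6c1* had the widest gaps relative to their level. *Ly6a* measured 1005 and 933 CPM in the EC-KO libraries and 1555 and 1706 in the EC-WT libraries. Its log2 fold change was -0.71 ± 0.18, with an unadjusted *P* of 0.00211 that did not survive adjustment over all genes (adjusted *P* = 0.302, edgeR). *Ly6c1* measured 118 and 156 against 263 and 231 CPM (log2 fold change -0.83 ± 0.21, adjusted *P* = 0.297). The *Ly6c1* difference was absent from read counts: with reads in place of UMIs it was 0.17 ± 0.49, and the gene's mean level was 24.7 CPM in reads, beside 192 CPM in UMIs. For both genes the EC-KO and EC-WT mice were separated by more than the distance between mice of 1 label. *Ly6e* measured 2427 and 2665 against 3718 and 2742 CPM, where the lower EC-WT value stood just above the higher EC-KO value (log2 fold change -0.31 ± 0.21, adjusted *P* = 0.848). This difference rested on WT mouse 1, since it was -0.05 without that mouse and -0.54 without WT mouse 2.

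Of the antiviral membrane proteins, *Ifitm3* measured 747 and 658 CPM in the EC-KO and 911 and 1028 CPM in the EC-WT libraries, without overlap (log2 fold change -0.42 ± 0.18, adjusted *P* = 0.729), but differed by only -0.09 ± 0.21 once cells were thinned to 1000 UMIs. *Bst2*, the scarcest of the genes, rested on 34 to 58 UMIs a mouse and overlapped between groups, at 46.8 and 68.1 against 84.7 and 60.1 CPM (log2 fold change -0.32 ± 0.29, adjusted *P* = 0.890). Its difference moved to -0.02 without WT mouse 1, -0.08 without KO mouse 1, -0.57 without KO mouse 2 and -0.56 without WT mouse 2. In the plot of levels by mouse, *Ly6a*, *Ly6c1* and *B2m* show the gap between labels most clearly.

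**Figure D1:**
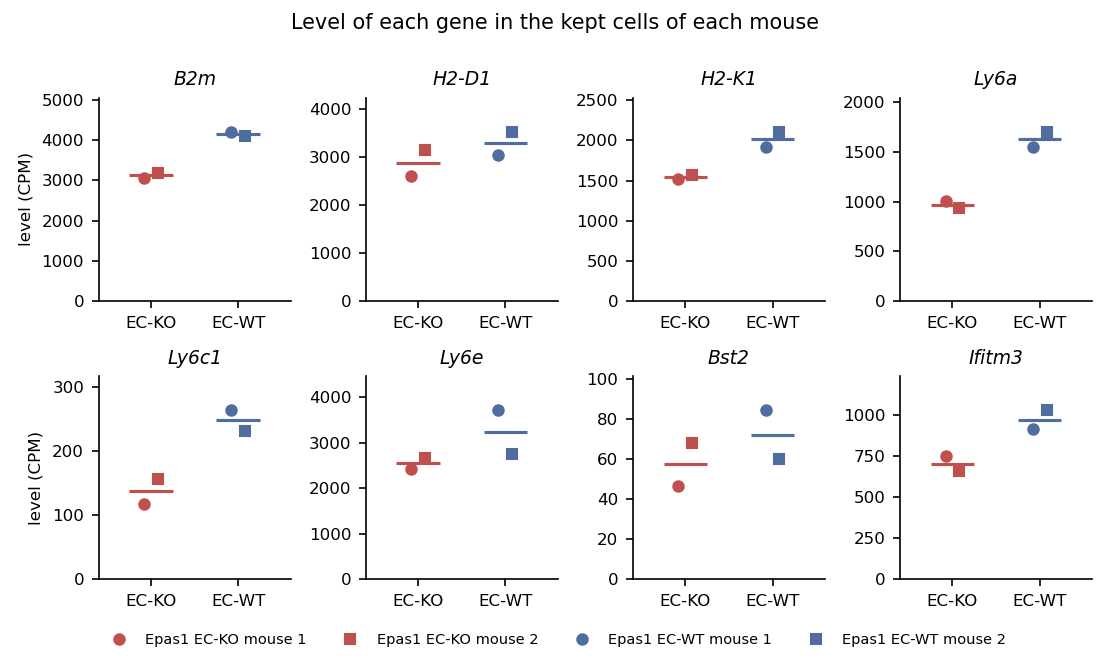
Level of each of the 8 genes in CPM (vertical axes, from 0), with 1 point for each mouse and a bar at the mean of the 2 mice of a label (red, *Epas1* EC-KO; blue, *Epas1* EC-WT). Both EC-KO mice lie below both EC-WT mice for *B2m*, *H2-K1*, *Ly6a*, *Ly6c1*, *Ly6e* and *Ifitm3*, while *H2-D1* and *Bst2* overlap.

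Counted over the set, 0 of 8 genes were called at an adjusted *P* of 0.05, where 0.119% of the 8385 genes tested were called, all 10 of them higher in EC-KO. At an unadjusted *P* under 0.05, edgeR gave 3 of the 8 (*Ly6a*, *Ly6c1* and *Ifitm3*), all 3 lower, against 6.6% of all genes tested and 2.85% for the lower direction alone. DESeq2 gave 5 of the 8, all lower, with none called after adjustment, against 1.15% of the 16225 genes it tested and 0.407% for the lower direction alone. The DESeq2 fit had no filter on low counts. Its shares therefore cover many scarce genes that edgeR left out, and they are not comparable with those of edgeR. All 8 log2 fold changes were below 0, as were 50.6% over all genes tested; the median was -0.36 for the 8 genes and -0.01 over all genes. Both EC-KO mice lay below both EC-WT mice for 6 of the 8, and for 20.7% of all genes tested. The 8 genes were chosen with earlier results of these data known, so these shares do not test the set. The smallest exact permutation *P* with 2 mice against 2 is 0.33, so that test cannot pass a threshold of 0.05 in this design.

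Other values moved with the labels. The smooth muscle list was higher in both EC-KO mice, as given above, and 11 of 157 and 5 of 98 cells in KO mice 1 and 2, but 3 of 114 and 2 of 72 in WT mice 1 and 2, reached 1% of UMIs from those 11 genes. The fibroblast list was higher in both EC-KO mice too. *Cd36* and *Fabp4*, genes of fatty acid uptake, summed to 442 and 330 against 459 and 585 CPM, and cells with at least 2 such UMIs and 0.1% of UMIs from them, outside the smooth muscle and fibroblast gene-high cells, made up 7.01% and 4.08% against 10.5% and 9.72%. The part of these values in the differences between labels was not tested, other than by leaving cells out. When only other endothelial cells were summed, a choice made after seeing the data, the log2 fold changes were -0.56 ± 0.19 for *Ly6a*, -0.69 ± 0.21 for *Ly6c1*, -0.30 ± 0.20 for *B2m*, -0.24 ± 0.19 for *H2-K1*, -0.31 ± 0.19 for *Ifitm3*, -0.32 ± 0.31 for *Bst2*, -0.14 ± 0.22 for *Ly6e* and -0.04 ± 0.20 for *H2-D1*, with adjusted *P* from 0.844 to 0.997 (edgeR). KO mouse 2 and WT mouse 1 were sequenced on the same flow cell and the other mice on a flow cell each. Within that pair, *Ly6a* differed by -0.74 and *Ly6c1* by -0.76 on the log2 scale, without a test, and *H2-D1* changed direction to 0.05. In fits with a single EC-WT mouse, which is then assumed to vary as the EC-KO mice did, calls over all genes rose from 10 to 129 without WT mouse 1 and to 117 without WT mouse 2. There, leaving out WT mouse 1 brought *Ly6a* past the threshold (log2 fold change -0.76, adjusted *P* = 0.0290), leaving out WT mouse 2 did so for *Ly6c1* (-0.94, adjusted *P* = 0.0173), and both were called without the filter on low counts (adjusted *P* = 0.0381 and 0.0479). Over the 18 alternatives with a test the adjusted *P* ran from 0.0290 to 0.999 for *Ly6a* and from 0.0173 to 0.9997 for *Ly6c1*.

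**Figure D2:**
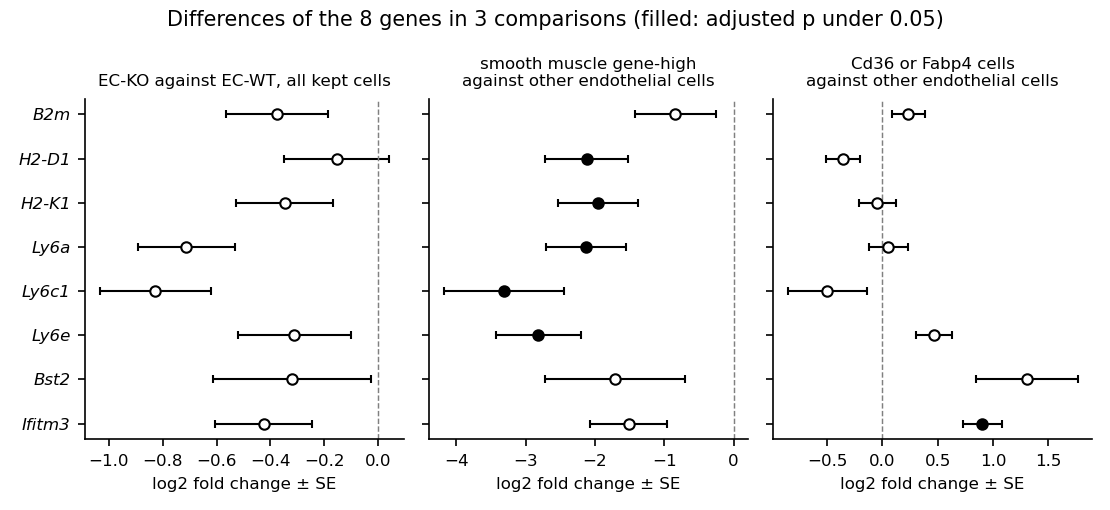
Log2 fold change with its standard error (horizontal axes, each panel on its own scale) of the 8 genes in the fits across all genes; filled points passed an adjusted *P* of 0.05. In the first panel no point is filled and all lie left of 0, in the second 5 of 8 are filled and lower, and in the third *Ifitm3* is filled and higher.

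The genes that work with the members were read from fixed lists. In the comparison of labels, no gene of these lists was called. Of 18 genes of antigen processing and peptide loading, 16 were tested, with a median log2 fold change of -0.05. The most abundant were the chaperones *Calr* (598 CPM, mean of 4 mice), *Tapbp* (tapasin, 442 CPM) and *Canx* (387 CPM). The list of other class I heavy chains and relatives was led by *H2-T23* (189 CPM), the nonclassical Qa-1 gene. The relatives *Hfe* (111 CPM) and *Fcgrt* (59.6 CPM) followed, and 6 tested genes of this list had a median of -0.19. Among receptors and signalling genes, *Ifngr1* (258 CPM), *Jak1* (152 CPM) and *Ifnar1* (110.3 CPM) were most abundant, and the median of 14 tested genes was 0.06. Of the other interferon-induced genes, *Ifitm2* (817 CPM), *Shisa5* (427 CPM) and *Gbp4* (184 CPM) led, and the median of 36 tested genes was 0.08.

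Other members of the Ly6 family were scarce beside *Ly6a* and *Ly6e*, with *Cd59a* at 138 CPM, *Lynx1* at 64.2 CPM and *Lypd6b* at 43.1 CPM. MHC class II, which presents peptides from outside the cell, was scarce. *Cd74* averaged 16.1 CPM, with 40.6 in WT mouse 2 and 7.05 to 9.25 in the other mice. *H2-Aa* averaged 13.9 and *H2-Ab1* 6.23 CPM. *H2-Aa* measured 6.43 and 4.70 CPM in the EC-KO against 21.6 and 23 in the EC-WT libraries, which did not pass the test (log2 fold change -1.91 ± 0.54, adjusted *P* = 0.422, edgeR). Of 13 interferon genes, *Ifnk* had a row in the tables and no UMI in a kept cell, which allows up to 2.76 to 5.30 CPM in a mouse.

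Expression of the abundant members reached nearly every cell. At least 1 UMI of *B2m* was found in 98.1%, 99.0%, 99.1% and 100% of cells of KO mouse 1, KO mouse 2, WT mouse 1 and WT mouse 2, and of *H2-D1* in 94.7% to 98.6%. *Ly6a* was detected in 70.7% (95% exact binomial interval 62.9 to 77.7) and 85.7% (77.2 to 92.0) of EC-KO cells and in 87.7% (80.3 to 93.1) and 94.4% (86.4 to 98.5) of EC-WT cells. *Ly6c1* was detected in 40.1% and 51.0% against 57.9% and 52.8%. *B2m*, *Ly6a* and *Ly6c1* were found in a smaller share of cells in both EC-KO mice, 3 of 8 genes where 4.91% of all genes tested had this arrangement, with mean differences of -1.03, -12.9 and -9.76 percentage points (exact permutation *P* = 0.33 for each, 2-sided, the smallest possible with 2 mice against 2). *Bst2* was found in 22.9% to 33.7% of cells. With every cell thinned to 1000 UMIs, the share with *Ly6a* was 42.0% and 50% against 70.2% and 66.7%, and with *Ly6c1* 12.1% and 12.2% against 25.4% and 20.8%. Intervals cover counting error only.

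Wells of plate rows L to P, where no well on any plate met the criteria for a cell, gave the background. Their median depth was 21.0 to 63.0 UMIs, and a UMI of *Ly6a* was found in 3.33% to 10.0% of them, of *B2m* in 13.3% to 33.3% and of *Ly6c1* in 0% to 0.833%. The smaller share of *Bst2*, 0% to 1.67%, also lay below its share in cells. By mouse, *Ly6a* stood at 712 and 548 CPM in these wells of the EC-KO plates against 2038 and 1850 CPM in those of the EC-WT plates, on 4 to 16 UMIs a plate, and *B2m* at 2612 and 2739 against 5208 and 7745 CPM, on 20 to 67 UMIs. For both genes, and for *Ly6e* (2968 and 2602 against 6114 and 5317 CPM), the wells were separated by label in the same direction as the cells. *H2-K1* (712 and 1370 against 2264 and 1156 CPM) and *Ifitm3* (594 and 1096 against 679 and 1272 CPM), which were separated in cells, overlapped in these wells. Detection rose with depth while levels did so for some genes only. *Ly6c1* was detected in 25% of cells with 1000 to 2000 UMIs and in 76.7% of cells above 8000, at 230.5 and 208 CPM. *Ly6a* measured 1809 CPM in the shallowest and 1322 CPM in the deepest of these cells, and *B2m* 4679 and 3539 CPM, whereas *H2-D1* went from 2316 to 3378 CPM. These bins pool mice. Within mice, *H2-D1* was lower in the shallowest cells in 4 of 4, while *Ly6a* and *B2m* were higher there in 3 of 4 but not in KO mouse 1, where *Ly6a* went from 808 to 1268 and *B2m* from 2678 to 3210 CPM. WT mouse 1 had the lowest median depth, 3779 UMIs, and the comparison of levels was repeated at other depths. After thinning to 1000 UMIs the log2 fold changes were -0.67 for *Ly6a*, -0.72 for *Ly6c1*, -0.44 for *B2m*, -0.29 for *H2-K1*, -0.10 for *H2-D1*, -0.09 for *Ifitm3* and -0.03 for *Ly6e*, whereas *Bst2* was too scarce to be tested. With a minimum of 2000 UMIs a cell, *Ly6e* stood at -0.34 and *Ifitm3* at -0.40.

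**Figure D3:**
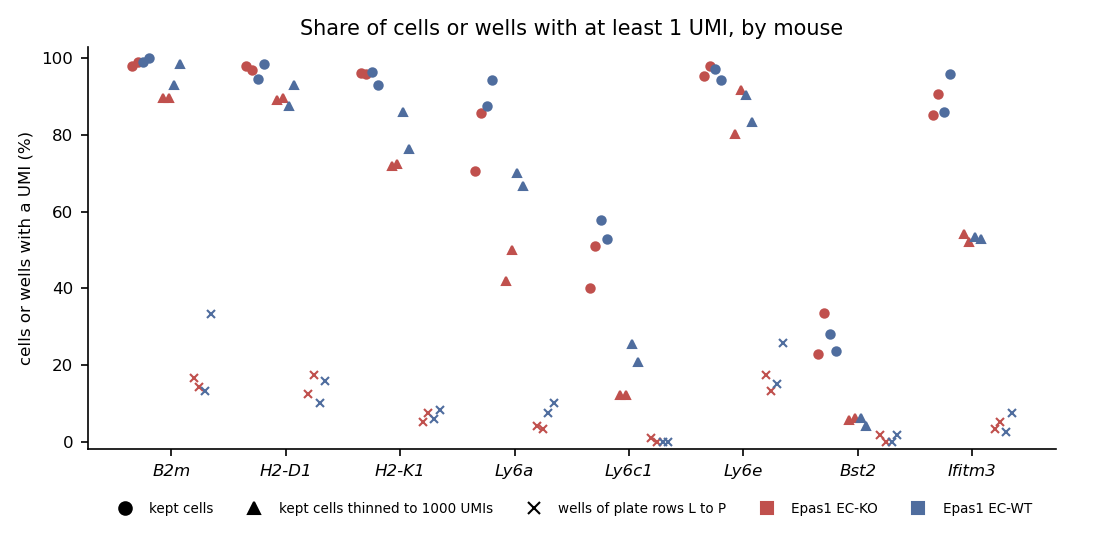
Share of cells or wells with at least 1 UMI of each gene (vertical axis, percent), with 1 symbol for each mouse (circles, all kept cells; triangles, the same cells thinned to 1000 UMIs; crosses, wells of plate rows L to P). *B2m*, *Ly6a* and *Ly6c1* show the lower shares in EC-KO libraries (red) at both depths, and the crosses stay below the circles for all 8 genes.

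A second question was how the members vary between kinds of cell within the sort. Cells were divided by the shares of fixed marker lists. A class with at least 1% of UMIs from smooth muscle genes held 21 cells (11, 5, 3 and 2 in the order of mice above), a class with at least 0.5% from fibroblast genes held 15 (9, 2, 2 and 2), and a class with at least 2 UMIs and 0.1% from *Cd36* and *Fabp4*, typical of capillary endothelium, held 34 (11, 4, 12 and 7). The other 371 cells are called other endothelial cells. These classes are ranges of a score and not types of cell. Cells from the threshold to 2 times the threshold numbered 2, 11 and 10 in the 3 classes, and those from 0.5 times the threshold up to it 4, 34 and 15. Endothelial markers made up a median of 0.0712% of UMIs in smooth muscle gene-high cells, 0.856% in fibroblast gene-high cells, 1.42% in *Cd36* or *Fabp4* cells and 1.24% in other endothelial cells.

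Smooth muscle gene-high cells carried less of the class I heavy chains and of the Ly6 genes than other endothelial cells of the same mice. The fit used the 3 mice with at least 3 such cells. *Ly6e* measured 501, 459 and 394 CPM in these cells of KO mouse 1, KO mouse 2 and WT mouse 1 against 2731, 2906 and 3733 CPM in other endothelial cells (log2 fold change -2.82 ± 0.62, 7.05-fold lower, adjusted *P* = 0.000175, edgeR). *H2-D1* measured 977, 834 and 525 against 2899, 3511 and 3084 CPM (-2.12 ± 0.60, 4.35-fold lower, adjusted *P* = 0.00812), so that no mouse overlapped. *Ly6a* measured 263, 354 and 131 against 1130.4, 1029 and 1567 CPM (-2.13 ± 0.58, 4.37-fold lower, adjusted *P* = 0.00491). *H2-K1* measured 501, 271 and 1182 against 1655, 1723 and 1966 CPM (-1.96 ± 0.57, 3.88-fold lower, adjusted *P* = 0.0109), and was not called after thinning to 1000 UMIs (-1.36 ± 0.53, adjusted *P* = 0.0555).

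*Ly6c1* was also called lower (adjusted *P* = 0.00303), on 3 UMIs in the class, and its pooled level was 0.0868 times that of other endothelial cells (95% exact interval 0.0178 to 0.255). With so few UMIs it passed the filter on low counts through the other endothelial cells and could only come out lower. The light chain *B2m* was not called, at 1515, 2022 and 4071 against 3216, 3288 and 4108 CPM (-0.84 ± 0.58, adjusted *P* = 0.519). Neither *Ifitm3* (-1.51 ± 0.55, adjusted *P* = 0.0636) nor *Bst2* (adjusted *P* = 0.402, 3 UMIs in the class) passed, although *Ifitm3* did in 5 of 10 alternatives (adjusted *P* = 0.0112 with DESeq2) and stood at -0.63 after thinning to 1000 UMIs (adjusted *P* = 0.482). Thus 5 of 8 genes were called, all lower, where 9.24% of 5410 genes tested were called, 5.19% lower and 4.05% higher. The 5 include *Ly6c1*, whose direction was fixed in this way. The calls, but not the sizes, depended on KO mouse 2. Without it none of the 8 was called, although the 5 genes differed by -1.70 to -3.88 (log2, SE 0.997 to 1.58) beside -1.96 to -3.32 (SE 0.573 to 0.868) with it. Without KO mouse 1 *H2-D1* and *Ly6e* were called, and without WT mouse 1, which gave 3 cells, these 5 and *Ifitm3* were. In WT mouse 2, with 2 such cells and outside the fit, 1 cell held all 31 *Ly6e* and all 25 *Ly6a* UMIs, so the pair measured 1877 and 1513.5 CPM. The endothelial list of this class summed to 1978, 2783 and 3809 CPM in the 3 mice. The fibroblast list summed to 12220, 4222 and 1051 CPM, against 1126, 1025 and 762 in other endothelial cells, and the part of either list in these levels was not tested.

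In *Cd36* or *Fabp4* cells, *Ifitm3* was higher than in other endothelial cells in all 4 mice. It measured 1135, 1618, 1822 and 1775 CPM in these cells of KO mouse 1, KO mouse 2, WT mouse 1 and WT mouse 2 against 760, 672, 835 and 979.6 CPM (log2 fold change 0.90 ± 0.18, 1.87-fold, adjusted *P* = 0.000733, edgeR). No value of the class overlapped with the other cells. The smooth muscle list was also higher in this class in all 4 mice, at 1820, 1179, 274 and 685 against 474, 865, 201 and 299.6 CPM, and the endothelial adhesion gene *Pecam1* was lower in all 4, at 3219, 4032, 3448 and 2968 against 4988, 6872, 6314 and 4799 CPM, whereas the whole list of 14 endothelial genes was higher in all 4, at 11804, 16346, 14948 and 17881 against 11142, 14175, 13391 and 11302 CPM. Their part in the *Ifitm3* difference was not tested. *Ly6e* was also higher in 4 of 4 mice, at 3048 to 5301 against 2580.0 to 3733 CPM, and missed the threshold (0.47 ± 0.16, adjusted *P* = 0.0977). *Bst2* was higher in 4 of 4 mice on 30 UMIs in the class, at 76.1 to 247 against 44.8 to 78.4 CPM (1.30 ± 0.46, adjusted *P* = 0.105).

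The antigen-presenting members *B2m*, *H2-D1* and *H2-K1* were not called in these cells in the main fit and did not move in 1 direction. *B2m* was higher in 4 of 4 mice (0.24 ± 0.15, adjusted *P* = 0.540) and *H2-D1* lower in 4 of 4 (-0.36 ± 0.16, adjusted *P* = 0.261), while *H2-K1* (-0.04 ± 0.17), *Ly6a* (0.05 ± 0.18) and *Ly6c1* (-0.50 ± 0.36) were not called either. Heavy chain UMIs for each *B2m* UMI were 0.992, 1.14, 0.846 and 1.11 in these cells against 1.42, 1.59, 1.23 and 1.41 in other endothelial cells, lower in each of the 4 mice. Calls over the set came to 1 of 8, where 5.21% of 4951 genes tested were called, 2.54% higher and 2.67% lower. *Ifitm3* was called with every mouse left out in turn but not without the filter on low counts, which moved the median of all genes from -0.09 to -0.74 (0.54 ± 0.19, adjusted *P* = 0.119), and there *H2-D1* was called lower (-0.72, adjusted *P* = 8.02e-05). Whether these differences depend on the genotype label was tested by an interaction term, and none of the 8 passed (adjusted *P* = 1 for each; 0 of 8 at an unadjusted *P* under 0.05), where 0.0808% of 4951 genes passed and 3.92% had an unadjusted *P* under 0.05.

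Fibroblast gene-high cells reached 3 cells in KO mouse 1 only, so the planned fit could not be made. The 9 cells of that mouse held 0 *Ly6a* UMIs, which allows up to 39.9 CPM, while other endothelial cells of the same mouse measured 1130.4 CPM. The 2 cells each of KO mouse 2, WT mouse 1 and WT mouse 2 held 14, 0 and 4 *Ly6a* UMIs, where 0 allows up to 890.2 CPM in WT mouse 1. The 4 UMIs of WT mouse 2 correspond to 1440 CPM, near the 1687 CPM of its other endothelial cells. *Ly6e* was lower than in other endothelial cells in each of the 4 mice, at 426, 1128, 1187 and 1080.3 CPM, and so was *H2-D1*, at 1504 to 2631 against 2899 to 3625 CPM. *B2m* had no such pattern, at 2117, 3900.0, 7418 and 7202 CPM, nor did *Ifitm3*, at 360.1 to 1187 CPM. The other heavy chain, *H2-K1*, was lower in 1 mouse and higher in 3, at 799 to 2881 against 1655 to 2107 CPM. With mice of at least 1 cell in the fit, *Ly6a* was called lower (-2.92 ± 0.71, adjusted *P* = 0.0317, edgeR), where 0.15% of 4658 genes tested were called, 0.0859% lower and 0.0644% higher, and *Ly6e* was not (-2.41 ± 0.62, adjusted *P* = 0.0562). At a threshold of 0.25%, with 49 cells, *Ly6a* was again called (-1.11 ± 0.17, adjusted *P* = 2.82e-05), where 20 of 5300 genes tested were called, 6 lower and 14 higher. Of these cells, 34 lay below the 0.5% threshold of the class.

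**Figure D4:**
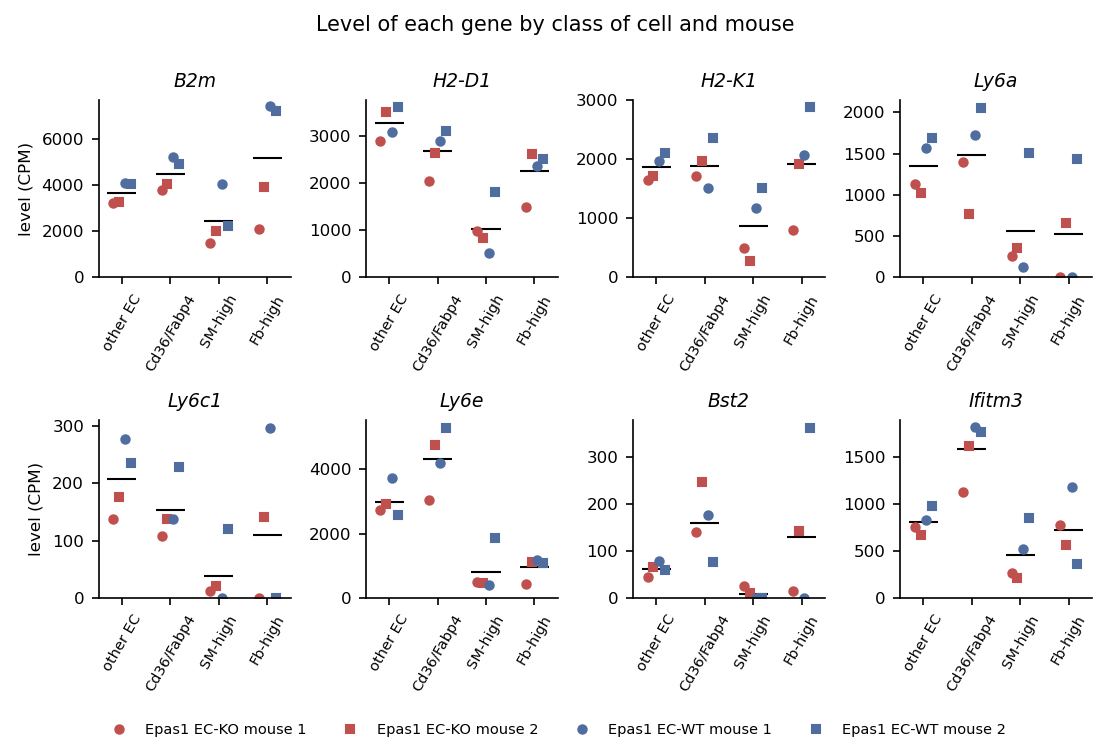
Level of each gene in CPM (vertical axes, from 0) in other endothelial cells (other EC), *Cd36* or *Fabp4* cells, smooth muscle gene-high cells (SM-high) and fibroblast gene-high cells (Fb-high), with 1 point for each mouse and a bar at their mean. *Ifitm3* is higher in *Cd36* or *Fabp4* cells of all 4 mice, and *H2-D1* and *Ly6e* are lower in smooth muscle gene-high cells of all 4, where the highest point of each is the WT mouse 2 pair of cells.

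Partners of the members were read in the same fits. In smooth muscle gene-high cells, where 5.19% of all genes tested were called lower, 3 of 15 tested genes of antigen processing were: *Tapbp*, the tapasin that bridges heavy chains to the peptide transporter (-2.62 ± 0.64, adjusted *P* = 0.00129), *Psmb10*, a subunit of the immunoproteasome (2 UMIs in the class, ratio 0.101, 95% exact interval 0.0121 to 0.368), and *Tapbpl*, a tapasin-related peptide editor (0 UMIs in the class, at least 2.98-fold lower against a limit of 3 UMIs over the class). Of 31 tested interferon-induced genes, 6 were called lower. None of 3 other class I heavy chains and relatives (*H2-T23*, *Hfe* and *Fcgrt*) or 2 other Ly6 genes was called. Genes with 0 to 2 UMIs in the class passed the filter on low counts through the other endothelial cells and could only come out lower, so these counts are no measure of how the lists moved. The 6 included the guanylate-binding proteins *Gbp4* (1 UMI in the class, ratio 0.0236, interval 0.000596 to 0.132), *Gbp3* (0 UMIs, at least 4.46-fold lower) and *Gbp7* (-2.69 ± 0.84, adjusted *P* = 0.0209, higher in 1 of 3 mice). The others were *Trim30a* (1 UMI in the class, ratio 0.0429, interval 0.00108 to 0.241, higher in 1 of 3 mice), *Oasl2* (1 UMI, ratio 0.0609, interval 0.00153 to 0.343) and *Shisa5*, the last at -1.94 ± 0.60 (adjusted *P* = 0.0196). The receptor chains of interferon gamma went opposite ways, *Ifngr1* lower (-2.52 ± 0.70, adjusted *P* = 0.00579) and *Ifngr2* higher (1.84 ± 0.58, adjusted *P* = 0.0217), the latter in 2 of 3 mice. DESeq2 called 4 of these 11 genes (*Tapbp*, *Ifngr1*, *Gbp4* and *Shisa5*), with adjusted *P* from 0.0502 to 0.349 for the other 7. Without KO mouse 1 *Tapbp* and *Gbp4* were called, and without KO mouse 2 none was, although the direction was kept for all 11, with *Tapbp* at -2.33 ± 1.08, *Ifngr1* at -3.47 ± 1.34 and *Shisa5* at -2.06 ± 1.06.

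In *Cd36* or *Fabp4* cells, *H2-T23* was called higher (1.12 ± 0.29, adjusted *P* = 0.0135), at 219 to 509 against 162 to 199 CPM. It was the 1 call among 3 tested heavy chains and relatives, beside *Hfe* and *Fcgrt*. *Ifit1*, which binds viral RNA (1.98 ± 0.52, adjusted *P* = 0.0149, higher in 3 of 4 mice), and *Ifi203* (2.00 ± 0.49, adjusted *P* = 0.00869, higher in 4 of 4) were called among 33 tested interferon-induced genes, and the complement inhibitor *Cd59a* (1.32 ± 0.36, adjusted *P* = 0.0201) among 3 tested Ly6 family genes. The 2 calls of 33 are near the 5.21% of all genes called in this fit. Each of the 4 lost its call in some fit with a mouse left out: *H2-T23* without KO mouse 1 (0.95), WT mouse 1 (1.03) or WT mouse 2 (0.98), *Ifit1* without KO mouse 2 (1.35) or WT mouse 1 (1.65), *Ifi203* without the same mice (1.61 and 1.90), and *Cd59a* without KO mouse 2 (1.10) or WT mouse 2 (0.96). *Cd59a* was called in only 4 of 10 alternatives, 1 of which repeats the main fit, and not by DESeq2 (adjusted *P* = 0.0538). *H2-T23* was not called without the filter on low counts (0.270), and *Ifi203* was not at the 0.05% threshold (0.0608). No gene of antigen processing (15 tested) or of interferon receptors and signalling (12 tested) was called there. The medians of these lists were -0.21 and 0.22, beside -0.09 over all genes tested.

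Single cells differed widely in *Ly6a*. Outside the smooth muscle and fibroblast gene-high classes, the 10th percentile, median and 90th percentile of *Ly6a* over cells were 0, 511 and 2681 CPM in KO mouse 1, 0, 519 and 2924 in KO mouse 2, 108, 1237 and 3814 in WT mouse 1, and 249.95, 1304 and 3507 in WT mouse 2. Median cells of both EC-WT mice thus held over 2 times the *Ly6a* level of median cells of both EC-KO mice, while the upper tails lay closer. With cells thinned to 1000 UMIs, the variance of *Ly6a* UMIs divided by their mean was 3.01, 2.31, 1.90 and 2.25, where counting alone gives 1. *B2m* had 1.70 to 3.02, *H2-D1* 1.31 to 1.81 and *H2-K1* 1.17 to 1.69. *Ly6c1* and *Bst2*, at 0.918 to 1.33 and 0.944 to 2.00, were too sparse to read, with means of at most 0.284 and 0.0949 UMIs a thinned cell. No *Ly6a* UMI was found in 30 of 137, 10 of 91, 10 of 109 and 3 of 68 of these cells.

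**Figure D5:**
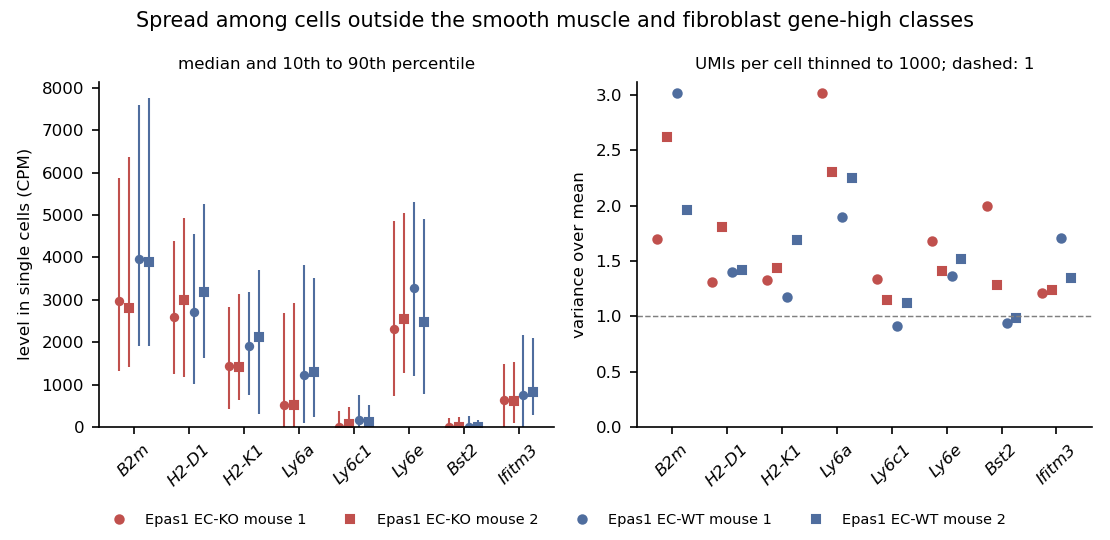
Left, level of each gene in single cells in CPM, with a point at the median and a line from the 10th to the 90th percentile for each mouse; right, variance over mean of UMIs after thinning every cell to 1000 UMIs, with a dashed line at 1. *Ly6a* lies between 1.90 and 3.01 in the 4 mice, and the points of *Ly6c1* and *Bst2* rest on too few UMIs to be read.

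Between members, the closest relation over cells was that of *B2m* with *H2-K1*, with a mean Spearman correlation within mice of 0.503 (0.25 to 0.611 over the 4 mice; 68 to 137 cells a mouse), followed by *Ly6a* with *Ly6e* (0.353, 0.305 to 0.453) and *Ly6a* with *Ly6c1* (0.336, 0.146 to 0.469). The heavy chains correlated with each other at 0.284 and *B2m* with *H2-D1* at 0.225. *H2-D1* with *Ifitm3* stood at -0.02, and *H2-K1* with *Ly6a* at 0.0569. These are descriptions across cells that share a plate and differ in depth: after thinning to 1000 UMIs the values were 0.211 for *B2m* with *H2-K1* and 0.274 for *Ly6a* with *Ly6e*, but 0.0700 for *Ly6a* with *Ly6c1* and 0.113 for the heavy chains.

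The 5 genes most like the members' summed level over those cells, of 2472 genes with a UMI in at least 25% of cells of every mouse, were *Cfl1* (cofilin, mean Spearman correlation 0.264 over 4 mice, 0.139 to 0.378), *Slfn5* (0.249), *Ppia* (0.247), *Psme1* (0.237), an interferon-inducible activator of the proteasome, and *Iigp1* (0.235), an interferon-inducible GTPase. The median over all 2472 genes was 0.0303. *H2-T23* ranked 6. Of these, *Slfn5* was called higher in *Cd36* or *Fabp4* cells (1.82 ± 0.28, adjusted *P* = 1.38e-05, edgeR) and lower in smooth muscle gene-high cells (adjusted *P* = 0.00245, 3 UMIs in the class, ratio 0.0885, 95% exact interval 0.0182 to 0.261), and none was called between the genotype labels. In the smooth muscle fit *Slfn5* passed the filter on low counts through the other endothelial cells and could only come out lower.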

How the data were processed

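Single CD31+ CD45- aortic cells of 4 mice were profiled by SORT-seq, and 3 tables a plate were used. The authors deposited raw UMI counts for each gene and well, raw read counts with PCR duplicates, and estimated counts of transcripts, in which UMI counts are corrected for the finite number of identifiers. The submitters' processing notes name GRCm38/mm10, BWA 0.7.15 and Seurat; the annotation is not given in the sources used here.

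UMI counts were the main measurement. ERCC spike-ins (17.9% to 25.8% of UMIs) and mitochondrial rows were left out, and wells with at least 1000 nuclear UMIs and at most 25% mitochondrial UMIs were kept. No doublet caller was run. All plates use the same 384 well barcodes, and 33 to 81 wells were kept in both plates of a pair. Cells are not replicates, so counts were summed over the kept cells of each mouse (566088 to 1088901 UMIs; 3 UMIs correspond to 2.76 to 5.30 CPM), and again for each class of cells. Sums were tested with edgeR 4.0.16 (quasi-likelihood, TMM, filterByExpr) in R 4.3.3, with Benjamini-Hochberg adjustment over all genes tested and calls at an adjusted *P* under 0.05. Class fits paired both classes of each mouse and used mice with at least 3 cells of the class. Values after ± are standard errors for log2 fold changes and standard deviations for levels. Shares of cells were compared by exact permutation tests over mice (scipy 1.17.1), with exact binomial intervals at 95%. The scripts were tested on simulated data. DESeq2 1.42.0, RLE scaling, no filter, the other tables, other cell filters and class thresholds, thinning to 1000 UMIs and leaving out each mouse were the alternatives. Each mouse was 1 plate, so mouse and plate cannot be told apart, and with 2 mice a group *P* values cover the spread between these mice only.

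The genes named are the 8 members, the 3 most abundant genes and every called gene of each pathway list, and the 5 genes most like the members over cells. The members and lists were chosen with earlier results of these data known. A further motif search is not reported here.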

Additional observations from a re-analysis of the deposited data

Results flagged for a closer look

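Transcripts of all 8 genes were counted in wells of plate rows L to P, which the comparisons do not use and of which none was a kept cell. Over the 4 plates these wells held 132 UMIs of *B2m*, 117 of *Ly6e*, 83 of *H2-D1*, 36 of *H2-K1*, 35 of *Ly6a*, 27 of *Ifitm3*, 4 of *Bst2* and 1 of *Ly6c1*. A count of 3 is the limit that finding 0 would allow, so *Bst2* passed it by 1 UMI, *Ly6c1* did not reach it, and the other 6 genes passed it.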

How the results depend on the processing

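Depth limits *Bst2* (34 to 58 UMIs a mouse) and the smooth muscle and fibroblast gene-high classes, and 2 mice a label limit every comparison of labels. The causes of the changes below were not tested.

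In the comparison of labels, 10 genes were called; 22 were with a minimum of 2000 UMIs, 17 with no mitochondrial limit, 115 with no filter (2 of them members, named above), 0 with read counts, 0 without smooth muscle gene-high cells, 0 without smooth muscle and fibroblast gene-high cells, 0 without cells over 3 times the median UMIs, 1 after thinning and 1 in other endothelial cells, and leaving out a mouse gave 4 to 129 calls with 0 to 1 members. At an unadjusted *P* under 0.05 the fits with 0 calls had 455 to 826 genes. The *Ly6c1* difference was 0.17 in read counts. *Epas1* ranged from -0.12 to 0.42 when a mouse was left out. Same-numbered mice did not deviate together (correlation -0.05), and with the number as a replicate block 8 genes and 0 members were called, *Ly6a* at -0.71.

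For smooth muscle gene-high cells, thinning gave 147 calls (3 members) and the 2% threshold 881, and leaving out a mouse gave 72 to 828 (0 to 6 members). For *Cd36* or *Fabp4* cells, no filter gave 426 calls, thinning 60, the 0.2% threshold 405 (2 members, *Ifitm3* and *Ly6e*), and leaving out a mouse 155 to 287. There *H2-K1* was 0.0010 with RLE scaling, 0.19 thinned, 0.070 at 0.05% and -0.138 to 0.078 with a mouse left out; *Ly6a* was -0.31 with no filter, 0.563 thinned, -0.16 at 0.05%, 0.294 at 0.2% and -0.081 to 0.182 with a mouse left out; *B2m* was -0.13 with no filter. The fibroblast gene-high class held 49 cells at 0.25%, 4 at 1%, and 6 to 13 with a mouse left out; its RLE, unfiltered, DESeq2, thinned and 1% fits were not run, as no fit with 3 cells a mouse could be made.

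Shares of cells (percentage points, EC-KO minus EC-WT) changed sign after thinning for *H2-D1* (-0.904), *H2-K1* (-8.97) and *Ly6e* (-0.796), and at 2000 UMIs for *H2-K1* (-0.985), *Ly6e* (-2.30) and *Bst2* (-1.62). With a mouse left out, EC-KO shares lay below EC-WT shares without overlap for 3 to 5 genes, against 7.86% to 31.1% of all genes tested, and the differences ran from -1.10 to 2.78 for *H2-D1*, -0.443 to 2.99 for *H2-K1*, -0.618 to 2.31 for *Ly6e*, -2.91 to 7.83 for *Bst2* and -7.75 to 2.12 for *Ifitm3*. Of the tested log2 fold changes of single genes under all alternatives, 369 kept direction and side of the threshold, 58 kept direction but missed it, 11 newly passed it and 10 changed direction. For *Cd36* or *Fabp4* cells the alternative of mice with at least 1 cell is the main fit itself. Its rows could only agree and are counted among those that kept both. Levels over the 4 mice moved by less than an SD in 74 cases and by more in 6, all in read counts, where *Bst2* was 19.5, *Ifitm3* 460.4, *Ly6c1* 24.7, *H2-D1* 3688 and *H2-K1* 2318 CPM, and *Ly6e* (4157 CPM) passed *B2m* (3974 CPM).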

Other observations

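A core of 15 interferon-induced genes was chosen after values had been seen, and 14 of them, among them *Isg15*, *Ifit1*, *Ifit3* and *Irf7*, had a row in the tables. It summed to 400.4 and 323 CPM in KO mice 1 and 2 and to 367 and 480.5 CPM in WT mice 1 and 2, and the groups overlapped. At least 5 core UMIs were found in 20 of 157, 15 of 98, 16 of 114 and 20 of 72 cells. The highest share of a cell's UMIs taken by the core was 0.395%, 0.391%, 1.61% and 0.449% in the same order, and the highest value belongs to a cell of WT mouse 1.

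Lists of the machinery around the members were also summed, without a test. Summed antigen processing genes measured 2501 and 2707 CPM in KO mice 1 and 2 and 2931 and 2553 CPM in WT mice 1 and 2, and receptors and signalling genes 1201 and 1242 against 1217 and 1353 CPM. The other class I heavy chains and relatives summed to 407 and 412 against 485 and 484 CPM, and the other interferon-induced genes to 3683 and 3629 against 3955 and 3853 CPM. The other Ly6 family genes summed to 293 and 268 against 309.7 and 306 CPM, and MHC class II genes to 31.2 and 24.7 against 50.8 and 83.0 CPM. The interferon-induced list had a median log2 fold change of 0.08, with 17 of 36 tested genes below 0, so its sum does not describe most of its genes.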
